A study of Mus musculus with 12 samples.

Results

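The cytosolic ribosomal protein genes of the developing mouse lung were followed across birth. Members were taken by symbol: Rpl or Rps followed by a number, with an optional letter or digit, together with Rplp0, Rplp1, Rplp2 and Rpsa. Symbols of named pseudogenes and the Rps6k kinases were left out. The rule found 84 of the 16152 genes in the count table, 49 of the large subunit and 35 of the small subunit, and all 84 passed the filter on low counts. GENCODE annotates 80 of them as protein coding, among them the paralogs Rpl22l1, Rpl7l1 and Rps27l, and the other 4 (Rpl6l, Rps3a2, Rps3a3 and Rps4l) as processed pseudogenes. The members lie on 19 chromosomes.

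Bulk RNA was sequenced from whole lungs of C57BL/6 mice, males and females alike, at the embryonic time-points E15.5 and E18.5 and the postnatal time-points P5 and P8. There were 3 replicates per time-point and 12 libraries in all. No animal was treated or carried an engineered allele. The replicates of a time-point shared a litter, so litter and time-point cannot be told apart, and each p-value from the fit across genes measures the spread between littermates. Between 41337443 and 53901957 reads were counted per library.

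Each ribosome carries a single copy of most ribosomal proteins, wrapped around the ribosomal RNAs of a small subunit, which reads the mRNA, and a large subunit, which joins the amino acids. The genes are scattered over the genome, yet their mRNAs are made in similar amounts in growing cells. These mRNAs typically begin with a C followed by a run of pyrimidines (C or T), the 5′ terminal oligopyrimidine tract, through which the growth kinase mTOR and the RNA-binding protein Larp1 control their translation. Mammalian genomes also hold many intronless copies of these genes, which matters for any measurement that counts uniquely mapped reads.

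Start-site sequences are shown for a few members whose mRNAs fell most or least after birth, or belong to a paralog pair. Rps6, the substrate of the S6 kinases, is shown with them. The sequences come from the RefSeq promoter table (GRCm38.p6), read 5′ to 3′ on the coding strand, with the longest pyrimidine run in capitals. The annotated start is not marked, and the run in capitals need not be the tract itself.
Rpl13a, chr7:45128722-45128751, minus strand: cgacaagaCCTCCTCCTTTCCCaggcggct
Rpl28, chr7:4792953-4792982, plus strand: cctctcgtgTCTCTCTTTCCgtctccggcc
Rps26, chr10:128626484-128626513, minus strand: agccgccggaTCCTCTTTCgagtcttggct
Rps27, chr3:90213631-90213660, minus strand: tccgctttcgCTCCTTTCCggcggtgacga
Rpl38, chr11:114668568-114668597, plus strand: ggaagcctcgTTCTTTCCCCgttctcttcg
Rps6, chr4:86857349-86857378, minus strand: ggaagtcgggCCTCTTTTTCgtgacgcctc
Rpl22l1, chr3:28805499-28805528, plus strand: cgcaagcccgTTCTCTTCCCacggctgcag

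The promoter table held 60 of the 84 members. Of these, 50 (83.3%) had a run of at least 8 pyrimidines between 50 bases before and 50 bases after the annotated start, against 39.1% of the 17431 other protein-coding genes of the table. The longest run had a median of 10.5 bases in members and 7 bases in the other genes. The letters CGGAAG, searched on both strands of the 300-base promoters, were in 41 members (68.3%) and in 23.3% of the other genes. TCTCGCGA was in 11 members (18.3%) against 1.53%, AAGATGGC in 6 (10%) against 3.55%, and TATAAA in 7 (11.7%) against 14.8%. These are matches of letters, and the motifs can overlap each other. Of the 5 members that fell most after birth, Rpl13a, Rpl28 and Rps26 had such a run within 4 bases of the start, that of Rps2 began 41 bases after it, and the longest run of Rpsa was 7 bases. Rps27 and Rpl38, which fell little, also had a run at the start.

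The family took a smaller part of the lung transcriptome after birth. Members received 4.55%, 4.71% and 4.40% of the counted reads in the E15.5 libraries and 5.10%, 4.94% and 4.66% at E18.5. They received 2.82%, 2.97% and 3.15% at P5 and 2.70%, 2.54% and 2.35% at P8. Every postnatal library lay below every embryonic library. The embryonic means were 4.55% ± 0.154 (SD, n = 3) for E15.5 and 4.90% ± 0.223 for E18.5. The postnatal means were 2.98% ± 0.165 for P5 and 2.53% ± 0.174 for P8, so that the P5 mean was 39.1% below the E18.5 mean. In bulk tissue, fewer cells that express the family and less of its RNA per cell cannot be told apart.

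**Figure D1:**
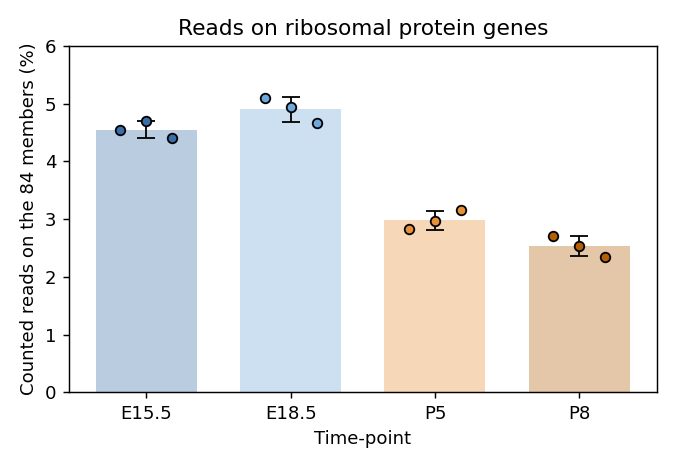
Percentage of the counted reads on the 84 ribosomal protein genes in each library. Points are libraries, bars the mean of the 3 replicates and error bars the SD. The 6 embryonic libraries lie between 4.40% and 5.10% and the 6 postnatal libraries between 2.35% and 3.15%.

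Several markers moved with age in the same libraries, and their part in the result was not tested. The summed CPM of 15 cell cycle genes lay between 3613 and 4408 in the embryonic and between 1357 and 1739 in the postnatal libraries. That of 12 erythroid genes lay between 4794 and 6280 before and between 12117 and 23099.9 after birth, and that of 4 immune genes between 17.2 and 23.3 before and between 96.4 and 204 after. The 8 lung markers, Nkx2-1 and Sftpc among them, were all in the count table, and their sum lay between 2851 and 4880 CPM before and between 14569.7 and 18489 CPM after birth. Such sums follow the most abundant genes of a list. By the edgeR test described below, 3 of the 8 lung markers were higher and 2 lower from E18.5 to P5 (median log2 change -0.08). Of the 12 erythroid genes 8 were higher and 4 lower, and of the 4 immune genes 3 were higher. All 15 cell cycle genes were lower. Over all genes 35.4% were called higher and 35.7% lower. The 5 testis markers were not in the count table. Thymocyte genes summed to 446 and 764 CPM in P8 replicates 1 and 2 and to 183 CPM in E15.5 replicate 2, against 111 to 133 CPM in the other libraries. Heart muscle genes summed to 1380 and 1722 CPM in E15.5 replicates 1 and 2, against 75.8 to 481 CPM in the others.

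From E15.5 to E18.5 the family changed little. The test was edgeR's quasi-likelihood test on the counts of all 12 libraries, with a call at a Benjamini-Hochberg FDR under 0.05 over 15994 genes. By this test 10 members rose and 0 fell, where 11.6% of all genes tested were called higher and 9.87% lower. At an unadjusted p under 0.05, 21 members were higher and 1 was lower. DESeq2 called 18 members higher and 0 lower. The median log2 fold change of members was 0.12, against -0.01 over all genes. By edgeR the share of members called higher was near that of all genes, and its count of 10 became 1 without E18.5 replicate 2, 4 without E18.5 replicate 1 or E15.5 replicate 3, and 6 without E15.5 replicate 1. Leaving out both libraries high in heart muscle genes leaves E15.5 replicate 3 alone at its time-point, so that setting cannot decide the calls.

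The largest rises were those of Rps27, Rps7, Rps29, Rpl23a and Rpl39, by log2 0.39, 0.37, 0.29, 0.29 and 0.29 (edgeR FDR between 0.012 and 0.045). Rps7, a small subunit protein, was at 1025, 1139 and 1042 normalised CPM at E15.5 and at 1432, 1484 and 1226 at E18.5, where normalised CPM are CPM of the TMM-scaled library. Rps27 was at 449.6, 444 and 408 and then at 573, 629.6 and 503 normalised CPM. Only 1.63% of the read-length stretches of its transcript are unique to it. For both genes the groups did not overlap, but they were picked for their rises in the same libraries.

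From E18.5 to P5, the interval that spans birth, almost the whole family fell. The edgeR test called 81 of 84 members lower and 0 higher, where 35.7% of all genes were called lower and 35.4% higher. No member was higher at an unadjusted p under 0.05, and DESeq2 called 81 lower and 0 higher. The median log2 fold change of members was -0.70, a level 1.63 times lower, against 0.00 over all genes. The members' changes were close together, with an interquartile range of 0.23 on the log2 scale, against 1.13 over all genes. The large and the small subunit had medians of -0.71 and -0.67, with 48 of 49 and 33 of 35 genes lower. In 81 members every P5 library was below every E18.5 library, which held for 38.8% of all genes. The exceptions by this count and by the test were the same genes, Rps14, Rps4l and Rpl24.

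**Figure D2:**
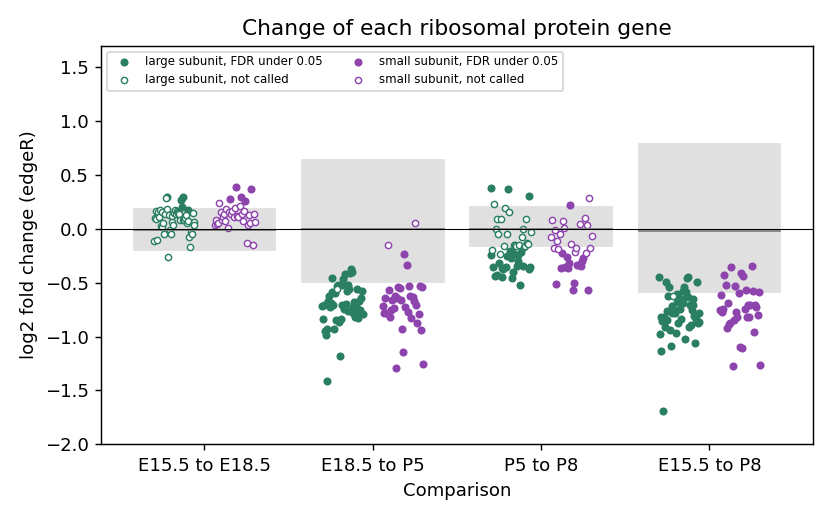
Log2 fold change of each member in the 4 comparisons, with the large subunit to the left and the small subunit to the right. Filled points are members with FDR under 0.05, grey boxes the interquartile range of all 15994 genes and grey lines their median. In the interval across birth and in the whole interval to P8 the members lie below the median of all genes, except for Rps4l in the first of these.

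The study's cutoffs ask for an absolute log2 fold change above 1 as well as an FDR under 0.05. From E18.5 to P5 they were passed by 5 members, all lower, where 9.34% of all genes were called lower by these cutoffs. These were Rpl13a, Rps2, Rpsa, Rpl28 and Rps26. Most of the family moved by less than the fold that the study used to call a gene.

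Rpl13a, a large subunit protein that is also known for a role in silencing inflammatory mRNAs, fell most. It was at 38.0, 37.5 and 33.3 normalised CPM at E18.5 and at 13.5, 13.5 and 14 at P5, a log2 fold change of -1.41 (SE 0.09, edgeR FDR = 4.6e-08). Only 44.9% of the read-length stretches of its transcript are unique to it, and 35.4% of its exonic bases overlap other genes. Rps2, a protein of the mRNA entry side of the small subunit, was at 333, 311 and 308 and then at 132, 127 and 131 normalised CPM, a change of -1.29 (SE 0.10). Rpsa, also known as the laminin receptor, went from 414, 375 and 362 to 160.4, 156 and 167 normalised CPM, a change of -1.25 (SE 0.09). The groups were far apart for each of these genes, but the genes were picked for their falls in the same libraries.

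Rpl28 went from 149, 128 and 127 to 56.1, 65.9 and 56.7 normalised CPM, a log2 change of -1.18 (SE 0.11, edgeR FDR = 8.8e-07). Rps26, which contacts the mRNA at the exit channel and is mutated in Diamond-Blackfan anaemia, went from 613, 559.9 and 561 to 258, 276 and 252, a change of -1.14 (SE 0.08). The groups did not overlap for either gene, but both were picked for their falls in the same libraries. The 5 genes were drawn from both subunits.

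At the other end, Rps4l was at 78.7, 84.1 and 77.0 normalised CPM at E18.5 and at 87.7, 82.6 and 78.7 at P5, a log2 fold change of 0.05 (SE 0.07, edgeR FDR = 0.52). The groups overlapped, and the annotation gives Rps4l as a transcribed processed pseudogene. Rps14, a small subunit protein, was at 1335, 1669 and 1150.1 and then at 1203, 1211 and 1329, a change of -0.15 (SE 0.12, edgeR FDR = 0.28). E18.5 replicate 2 stood above the other libraries, and without it the change of Rps14 was 0.01. Rpl24 was at 0.864, 1.24 and 1.24 and then at 0.593, 0.630 and 1.04 normalised CPM, the lowest level of the family (log2 change -0.56, SE 0.33, FDR = 0.15). Among the members called lower, the smallest falls were those of Rps27 (-0.23, FDR = 0.041), Rps27l (-0.33), Rpl38 (-0.37) and Rpl39 (-0.40). The call for Rps27 was lost with DESeq2 size factors, with the stricter filter of 10 CPM, without both libraries high in heart muscle genes, and without E15.5 replicate 1, E18.5 replicate 1 or 2, or any P5 replicate, with FDR between 0.052 and 0.18.

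The stalk proteins recruit elongation factors to the large subunit. Rplp0, the base of the stalk, was at 3089.8, 3089 and 2700.4 normalised CPM at E18.5 and at 1819, 1854 and 2001 at P5, a log2 change of -0.65 (SE 0.08, edgeR FDR = 2.1e-05). Rplp1 and Rplp2, its acidic partners, changed by -0.58 (SE 0.09) and -0.79 (SE 0.08). All 3 fell, with P5 libraries below all E18.5 libraries.

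Rpl5 and Rpl11 bind the smallest ribosomal RNA and, when ribosome assembly is disturbed, the p53 regulator Mdm2, as Rpl23 does. Rpl5 was at 1159, 1123 and 1046 normalised CPM and then at 669.6, 682 and 731, a log2 change of -0.68 (SE 0.06, edgeR FDR = 1.3e-06). Rpl11 and Rpl23 changed by -0.71 (SE 0.08) and -0.59 (SE 0.06). Rps6, the substrate of the S6 kinases, went from 200.5, 172 and 179 to 100.2, 111 and 108, a change of -0.79 (SE 0.07). Rps19, the gene most often mutated in Diamond-Blackfan anaemia, changed by -0.62 (SE 0.08). The stalk genes, Rpl5, Rpl11, Rpl23, Rps6 and Rps19 fell by between 0.58 and 0.79 on the log2 scale, while Rpsa (-1.25) and Rpl38 (-0.37), chosen for their roles in the same way, lay farther from the family's median.

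From P5 to P8 fewer members were called. The edgeR test called 38 members lower and 4 higher, where 8.21% of all genes were called lower and 9.75% higher. The median log2 fold change of members was -0.19, against 0.00 over all genes, and the interquartile range of members, 0.30, was close to the 0.37 of all genes. Without the 3 libraries high in thymocyte genes the median was -0.31. The count of 38 was 23 without P5 replicate 3 and 25 without those 3 libraries, while the count of 4 was 0 without P5 replicate 1, without P5 replicate 3 or without P8 replicate 1, 1 without P5 replicate 2, and 0 without those 3 libraries. Leaving out E15.5 replicate 1 or 3, E18.5 replicate 2 or P8 replicate 2 gave 2 members higher.

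The largest falls were those of Rps27, Rps7, Rpl39, Rps14 and Rps27a. Rps27 went from 482, 478 and 491 normalised CPM at P5 to 370.0, 321 and 289.7 at P8, a log2 change of -0.57 (SE 0.09, edgeR FDR = 0.0038). Rps14, which had not been called across birth, now went from 1203, 1211 and 1329 to 995, 835 and 789, a change of -0.52 (SE 0.12, FDR = 0.015). Rps27a, made as a fusion with ubiquitin, changed by -0.50 (SE 0.07), Rps7 by -0.56 (SE 0.09) and Rpl39 by -0.52 (SE 0.08). In each of these genes the P8 libraries were below the P5 libraries. As the genes were picked for their falls in the same libraries, this separation is a description only.

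The members called higher from P5 to P8 were Rpl10, Rpl28, Rpl9 and Rps25. Rpl10, which joins the large subunit last, was at 53.2, 59.2 and 58.1 normalised CPM at P5 and at 81.3, 65.9 and 74.5 at P8, a log2 change of 0.38 (SE 0.11, edgeR FDR = 0.032). Rpl28 was at 56.1, 65.9 and 56.7 and then at 88.0, 77.5 and 66.4, a change of 0.38 (SE 0.11). Rpl9 and Rps25, a protein needed by several viral internal ribosome entry sites, changed by 0.31 (SE 0.10) and 0.22 (SE 0.07). P8 replicate 1 was the highest of the P8 libraries for all 4. Across the 84 members, the P5 to P8 change and the mean level had a Spearman rho of -0.47, and the change and the share of unique read-length stretches a rho of -0.19. These are descriptions across genes of the same libraries, which are not independent replicates.

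**Figure D3:**
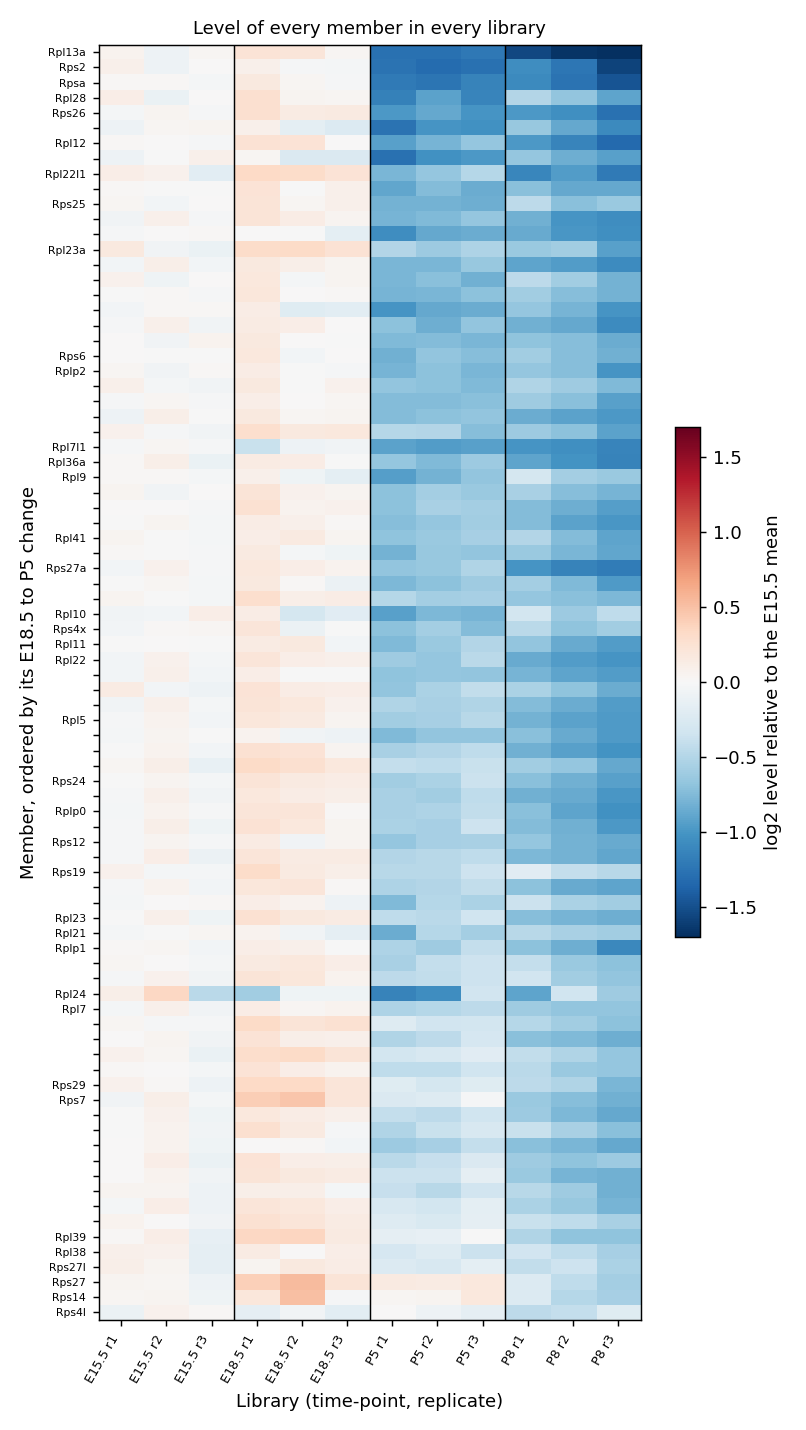
Level of each of the 84 members in each of the 12 libraries, as log2 of the normalised CPM relative to the mean log2 of the 3 E15.5 libraries, with names for the members chosen by the naming rule. Rows are ordered by the E18.5 to P5 change, from Rpl13a (-1.41) at the top to Rps4l (0.05) at the bottom, and black lines separate the time-points.

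Over the whole interval from E15.5 to P8, 83 of 84 members were lower and 0 higher by the edgeR test, where 38.7% of all genes were lower and 37.6% higher. No member was higher at an unadjusted p under 0.05, and DESeq2 called 83 lower and 0 higher. The median log2 change was -0.75, against -0.02 over all genes. The member not called was Rpl24 (-0.62, SE 0.33, FDR = 0.10). By mean level, 72 members were highest at E18.5 and 12 at E15.5, while 65 were lowest at P8 and 19 at P5.

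The study's cutoffs were passed by 9 members from E15.5 to P8, where 11.5% of all genes were called lower by them. Rpl13a fell by 1.69 on the log2 scale (SE 0.09, edgeR FDR = 7.1e-09), from 33.8, 30.4 and 33.2 to 11.1, 10.2 and 8.90 normalised CPM. Rps2, Rpsa, Rpl12 and Rps27a followed at -1.27, -1.26, -1.14 and -1.11. Rpl22l1 (-1.09), Rps26 (-1.09), Rpl7l1 (-1.06) and Rpl36a (-1.02) completed the list. Rpl12, of the stalk base, was at 532, 527 and 515 at E15.5 and at 266, 240.3 and 209 at P8. Its groups did not overlap, but it was picked for its fall in the same libraries. The smallest changes were those of Rps4l and Rps19, at -0.35 each.

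Members were next compared with the family itself, by giving the edgeR test the summed member reads as library size. A change is then a change of a member's part of the family's reads. From E15.5 to E18.5, 2 members (Rps7 and Rps27) were higher and 1 lower relative to the family, where 4.36% of all genes were higher and 13.8% lower. None of the 3 was called without any 1 of the E15.5 replicates, E18.5 replicate 1 or 2, P5 replicate 2 or P8 replicate 2. The lower call was also lost without P5 replicate 1 or 3. From E18.5 to P5, 10 were higher and 16 lower, where 66.8% of all genes were higher and 9.70% lower. From P5 to P8, 20 were higher and 5 lower, where 32.4% of all genes were higher and 0.375% lower. From E15.5 to P8, 18 were higher and 13 lower, where 69.3% were higher and 9.19% lower. Between 53 and 81 of the 84 members were not called in either direction.

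Relative to the family, the largest drops from E18.5 to P5 were those of Rpl13a (-0.76), Rps2 (-0.64), Rpsa (-0.60), Rpl28 (-0.52) and Rps26 (-0.49). The largest gains were those of Rps4l (0.70), Rps14 (0.50), Rps27 (0.42), Rps27l (0.31) and Rpl38 (0.27), with edgeR FDR between 6.6e-05 and 0.0096. From E15.5 to P8, Rpl13a (-0.92), Rps2 (-0.50), Rpsa (-0.49), Rpl12 (-0.36) and Rps27a (-0.33) lost most. Rps4l (0.44), Rps19 (0.42), Rps27 (0.36), Rps14 (0.35) and Rps27l (0.34) gained most. Rpl38, known for its part in the translation of Hox mRNAs in the embryo, went from 190.0, 173 and 186 to 141, 148 and 134 normalised CPM across birth, a fall smaller than that of the family.

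Levels were compared between genes only per length, as normalised CPM per kilobase of the annotated main transcript, averaged over the 12 libraries. The order depends on the length chosen. The main transcript of Rps20, for example, has 3706 bases, of which 357 are coding. The highest were Rps14 (1959 ± 391, SD over 12 libraries), Rpl41 (1667 ± 436), Rplp0 (1653 ± 471), Rps12 (1587 ± 407) and Rpl7 (1461 ± 324). Neighbours in this order differed by less than this spread, which includes the change with age, and the order was not the same at each time-point. At E15.5 Rpl41 (1998 ± 54.6, SD, n = 3), Rplp0 (1968 ± 73.7) and Rps14 (1963 ± 85.1) lay together, while at P5 Rps14 (2090.05 ± 118) was followed by Rps27 (1401 ± 19.5) and Rplp0 (1393 ± 71.1). The lowest were Rpl24 (1.51 ± 0.478), Rpl13a (22.1 ± 11.5), Rpl21 (60.7 ± 12.8), Rps4l (84.7 ± 8.88) and Rpl22l1 (87.6 ± 33.0). Rpl24 and Rpl13a lay apart from the others.

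Reads of near-identical copies are not counted where only uniquely mapped reads are kept. Of the read-length stretches of a member's main transcript, a median of 55.3% were unique to the gene among all GENCODE transcripts, at the length of a sequenced read, with a range from 1.63% for Rps27 to 100% in 6 members. In 38 members it was under 50%. A stretch counted as shared if any other gene held it, on either strand. Genes that overlap at the same place, such as Rps10 and RPS10-NUDT3, therefore lower the share, although their reads can map uniquely. The authors also removed reads counted as ambiguous, so reads in such overlaps may be missing from the counts. A low share did not always mean a low level, as Rps12, with 11.2% of its stretches unique, was among the highest per length. Of the exonic bases of Rpl24, 47.0% overlap another gene on the same strand, and 19.9% of its stretches are unique. Levels of such genes from uniquely mapped reads are uncertain, and so is the split of reads between Rps3a1 and its copies Rps3a2 and Rps3a3, whose transcripts match it at 99.5% and 98.9% of aligned bases. The fall across birth was seen at every degree of uniqueness. It was called in 16 of the 17 members under 25% unique (median log2 change -0.72), in all 21 members from 25% to 50% (-0.72), in all 21 from 50% to 75% (-0.71) and in 23 of the 25 at 75% or above (-0.65). Rpl22, with every stretch unique, went from 461, 432 and 425 to 262, 254 and 290.2 normalised CPM.

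The ratio of a paralog's counts to its partner's in the same library does not depend on scaling. The pairs compared were Rpl22l1 with Rpl22, Rps27l with Rps27, Rpl7l1 with Rpl7 and Rps4l with Rps4x. Rpl6l, Rps3a2 and Rps3a3, whose transcripts match those of their parent genes at 98.7% or more of aligned bases, were not compared with them. The 6 embryonic libraries were compared with the 6 postnatal ones by an exact two-sided permutation test of the log2 ratio, with p-values adjusted over the 4 pairs and a smallest possible p of 0.0022. Each side pools 2 litters of different age, and the test treats its libraries as exchangeable, so these p-values do not measure the spread between littermates and may be too small. In every pair the paralog was the less counted gene in all libraries.

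The ratio of Rps4l to Rps4x, an X-linked gene of the small subunit, was higher after birth. It lay between -2.03 and -1.62 in the embryonic libraries and between -1.66 and -0.97 in the postnatal ones, overlapping at 1 library (P8 replicate 1) with the embryonic range. The means were -1.76 ± 0.158 (SD, n = 6) and -1.26 ± 0.244, a difference of 0.49 (exact permutation p = 0.0065, adjusted p = 0.026). The ratio of Rpl7l1, which acts in ribosome biogenesis, to Rpl7 was lower after birth. It lay between -3.39 and -2.84 in the embryonic and between -3.37 and -3.26 in the postnatal libraries, a difference of -0.30 (exact permutation p = 0.015, adjusted p = 0.030). E18.5 replicate 1 lay below all postnatal libraries and the other 5 embryonic libraries above them.

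In the pooled comparison the ratio of Rpl22l1 to Rpl22 was lower after birth by 0.19 on the log2 scale. Embryonic values ran from -2.94 to -2.59 and postnatal values from -3.04 to -2.79 (exact permutation p = 0.026, adjusted p = 0.035). The ranges overlapped, and the adjusted p was at or above 0.05 when any of 8 libraries was left out, as given with the other settings. The mean ratio was -2.79 ± 0.157 (SD, n = 3) for E15.5 and -2.63 ± 0.0371 for E18.5. It was -2.85 ± 0.0880 for P5 and -2.94 ± 0.135 for P8. The E15.5 and P5 libraries overlapped, so the pooled comparison does not place the change at birth. Rpl22 and Rpl22l1 are known to regulate each other, Rpl22 acting on Rpl22l1 mRNA. The ratio of Rps27l, a p53 target, to Rps27 differed by -0.07 between the sides (exact permutation p = 0.57), and by -0.12 to -0.02 when 1 library was left out. Its means were -2.53 ± 0.0551 (SD, n = 3) for the E15.5 libraries and -2.80 ± 0.163 for E18.5. For P5 the mean was -2.91 ± 0.0387 and for P8 -2.55 ± 0.145, and every E15.5 library lay above every P5 library, so the pooled comparison does not describe its course. Rps27l was at 77.3, 83.9 and 82.1 normalised CPM at E18.5 and at 64.0, 61.9 and 67.1 at P5, with no overlap of the groups.

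**Figure D4:**
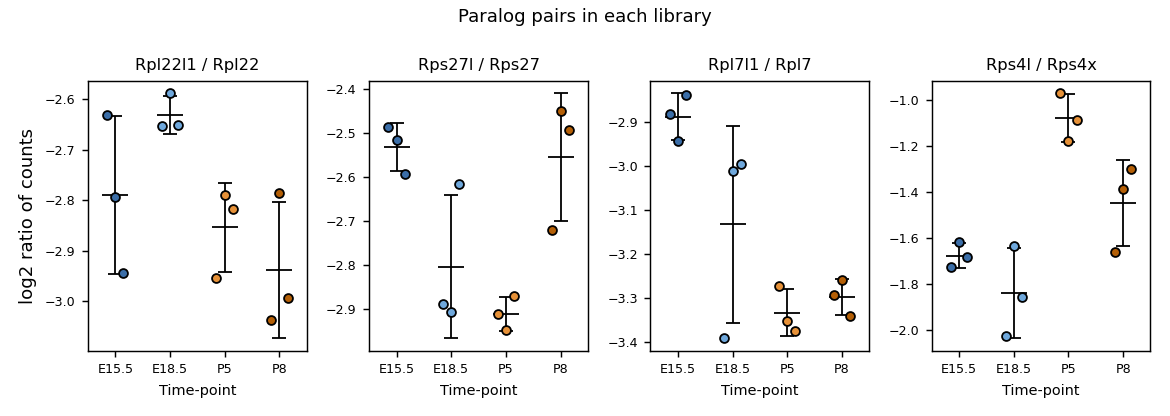
Log2 ratio of the counts of each paralog to those of its partner, with 1 count added to each, in every library. Points are libraries, horizontal dashes the mean of the 3 replicates and error bars the SD. The ratio of Rps4l to Rps4x lies highest at P5, and that of Rpl7l1 to Rpl7 lies at or below -3.26 in all postnatal libraries.

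Rps24 is the member for which a splicing event could be tied to the gene. The study listed an alternative 5′ splice site of Rps24 among its changed events, so its values in the same libraries are a description, with no test. The mRNAs of Rps24, another gene mutated in Diamond-Blackfan anaemia, are known to differ near the end of the coding sequence between tissues. The percent spliced in (PSI) of the site was 3.5%, 2.57% and 13.43% at E15.5 and 13.98%, 5.27% and 8.95% at E18.5. It was 36.2%, 37.8% and 25.9% at P5 and 43.1%, 46.42% and 59.04% at P8. The embryonic and postnatal libraries did not overlap.

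The means were 6.5% ± 6.02 (SD, n = 3), 9.40% ± 4.37, 33.3% ± 6.45 and 49.5% ± 8.41 in the order of age. Between 14 and 84 reads lay behind each value. The 95% Wilson interval of the lowest value, in E15.5 replicate 2, ran from 0.688% to 8.66%, and that of the highest, in P8 replicate 3, from 38.8% to 75.5%, covering counting error only. Over the same time the gene's level fell with the family, from 779, 744 and 726 normalised CPM at E18.5 to 441, 461 and 516 at P5, a log2 change of -0.66 (SE 0.07, edgeR FDR = 3.8e-06).

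**Figure D5:**
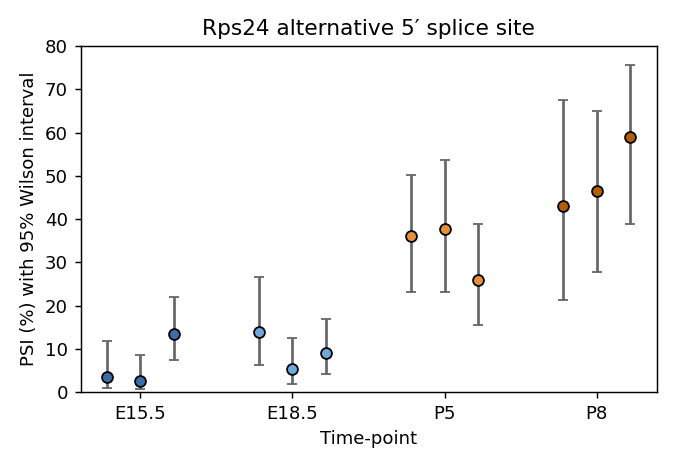
Percent spliced in of the alternative 5′ splice site of Rps24 in each library, with its 95% Wilson interval from the reads behind it. The 6 embryonic libraries lie at or below 13.98% and the 6 postnatal libraries at or above 25.9%.

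Rack1 and Fau, ribosomal proteins outside the symbol rule, were also called lower from E18.5 to P5. Rack1, a signalling scaffold on the small subunit, was at 2046, 2104 and 1702 normalised CPM at E18.5 and at 1243, 1237 and 1254 at P5, a log2 change of -0.65 (SE 0.09, edgeR FDR = 3.3e-05). Fau, made as a fusion with a ubiquitin-like protein, changed by -0.30 (SE 0.08, FDR = 0.0064). Of 82 annotated pseudogenes of the family, 77 were called lower and 0 higher from E18.5 to P5, with a median of -0.76. Over all genes 35.7% were called lower and 35.4% higher. The reads of the pseudogenes cannot be separated fully from those of the parent genes.

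The machinery that builds and runs ribosomes also fell across birth. Of 46 ribosome biogenesis genes, 43 were lower and 1 higher from E18.5 to P5, with a median log2 change of -0.83. Over all genes tested, 35.7% were lower and 35.4% higher in this interval. Npm1, an assembly chaperone of the nucleolus, went from 1099, 1018 and 1133 to 348, 363 and 367 normalised CPM (log2 change -1.59, SE 0.07), and Fbl and Dkc1, which modify ribosomal RNA, changed by -1.55 and -1.51. From E15.5 to E18.5, 25 of the 46 were lower and 0 higher (median -0.26), where 9.87% of all genes were lower and 11.6% higher. From P5 to P8, 6 biogenesis genes were called higher and 0 lower, a share near the 9.75% of all genes called higher.

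Of 19 tested genes of RNA polymerase I, which transcribes ribosomal RNA, 15 were lower and 0 higher from E18.5 to P5, with a median of -0.51. The shares over all genes, 35.7% lower and 35.4% higher, also apply to the lists that follow. Polr1b changed by -1.29, Polr2h by -1.12 and Polr1a by -1.03. The list includes subunits shared with other RNA polymerases, Polr2h among them, so it is not specific to ribosomal RNA. Of 39 translation factors, 36 were lower and 1 higher (median -0.51). Eef1g went from 1209, 1058 and 1188 to 494.8, 525.9 and 490.4 normalised CPM (log2 change -1.19, SE 0.07), and the poly(A)-binding protein gene Pabpc1 and Eef1b2 changed by -1.01 and -0.98. Of 77 genes for mitochondrial ribosomal proteins, 57 were lower and 2 higher (median -0.41), with Mrps22 at -1.02, Mrpl19 at -0.89 and Mrpl45 at -0.89.

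Of 21 genes that control the family's growth response, 8 were lower and 3 higher from E18.5 to P5 (median -0.09), and the share called lower was near the 35.7% of all genes. Mycn, a Myc family transcription factor, was at 34.4, 38.6 and 43.0 normalised CPM at E18.5 and at 16.97, 18.8 and 17.9 at P5, a log2 change of -1.11 (SE 0.09, edgeR FDR = 4.4e-07). Myc went from 32.5, 48.6 and 56.3 to 16.6, 16.9 and 16.9, a change of -1.45 (SE 0.20). Ddit4, an inhibitor of mTOR, changed by -1.68 (SE 0.24), with E18.5 replicate 1 at 162 normalised CPM and the other libraries of that time-point at 81.4 and 85.1. Larp1 changed by -0.52 (SE 0.07), and Mtor was at 57.8, 51.6 and 48.9 and then at 55.3, 52.3 and 61.8 (0.10, FDR = 0.44).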

How the data were processed

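Whole-lung RNA-seq of 12 libraries was analysed. The authors mapped reads uniquely to mm10 with TopHat2 2.1.1 and Bowtie2 2.3.4, counted them per Gencode gene with HTSeq 0.10.0 and deposited raw counts, keeping genes that reached 1 CPM in 3 samples. Whether counting used strand is not given in the sources used here. The deposited CPM are counts scaled by mapped reads, and the deposited PSI values are percent spliced in from VAST-TOOLS. Symbols came from a GENCODE table, in which 16 count-table genes had none. Coordinates and transcripts are GENCODE on GRCm38, the same assembly as mm10. The 15994 genes that reached 1 CPM in 3 or more libraries were tested with edgeR 4.0.16 (TMM, quasi-likelihood test, 1 fit of 12 libraries, Benjamini-Hochberg) in R 4.3.3. DESeq2 1.42.0 and limma 3.58.1 on log2(CPM + 1) served as alternatives. Fold changes are relative to the median gene, so a change of total RNA per cell cannot be seen. The standard error (SE) was derived from the quasi-likelihood F statistic. The edgeR script was tested on simulated data.

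Members named are the 5 largest rises and falls per comparison, those past the study's cutoffs, paralog pairs, level extremes and fixed role groups, and from the related lists the 3 largest changes. Some genes are not reported here by name. Mtor and Larp1 were named after their values were seen. Members and lists were chosen with earlier results of these data known. Replicate numbers mark no shared litter or day: of 18 same-numbered pairs across time-points, deviations correlated between -0.30 and 0.27. Alternatives covered normalisation, filters, test, left-out libraries and pseudocounts.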

Additional observations from a re-analysis of the deposited data

Results flagged for a closer look

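In the ratio of Rpl7l1 to Rpl7, E18.5 replicate 1 stood apart from the other embryonic libraries, at -3.39 on the log2 scale against -3.01 to -2.84, with a gap to its nearest neighbour of 0.688 of the range of the 6 libraries. This was 1 of 8 sets of 6 libraries examined, and chance flags about 1 in 20. That library held Rpl7l1 at 149.8 normalised CPM, against 183 and 187 in the other E18.5 libraries.

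Other symbols of the same form appear in the deposited CPM table but not in the count table. Rpl3l, a paralog of Rpl3 that is restricted to heart and skeletal muscle, reached 1.56 CPM in P8 replicate 1 and exceeded the limit that 3 reads set, at most 0.0619 CPM, in 7 libraries, with a median of 0.104 CPM. Rpl39l, a paralog of Rpl39 known from testis, reached 0.493 CPM and exceeded that limit in 10 libraries, with a median of 0.233 CPM. Rpl32l reached 0.163 CPM in P8 replicate 2, above the limit in that library and in 1 library in all.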

How the results depend on the processing

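The fall across birth kept its direction under every alternative run for it. Leaving out each library in turn gave 80 to 81 members lower from E18.5 to P5 (median -0.72 to -0.65) and 83 to 84 from E15.5 to P8 (median -0.81 to -0.70). The same gave 1 to 15 members higher between the embryonic time-points (median 0.07 to 0.15), and from P5 to P8 0 to 5 higher and 23 to 40 lower (median -0.25 to -0.16). Relative to the family it gave 0 to 2 higher and 0 to 1 lower between the embryonic time-points, 8 to 10 higher and 13 to 18 lower from E18.5 to P5, 14 to 22 higher and 3 to 6 lower from P5 to P8, and 13 to 19 higher and 9 to 13 lower from E15.5 to P8. The difference in the Rpl22l1 to Rpl22 ratio ranged from -0.23 to -0.16, with adjusted p at or above 0.05 without E15.5 replicate 1, any E18.5 replicate, P5 replicate 1 or 3, or P8 replicate 1 or 3. Shares of reads without 1 replicate ranged from 4.47% to 4.63%, 4.80% to 5.02%, 2.90% to 3.06% and 2.44% to 2.62% in the order of age, and Rps24 PSI from 3.04% to 8.47%, 7.11% to 11.5%, 31.1% to 37.0% and 44.8% to 52.7%.

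With DESeq2's Wald test 18 members were higher from E15.5 to E18.5. With the study's cutoffs 0 were higher and 5 lower from E18.5 to P5, 0 were higher between the embryonic time-points, 0 higher and 0 lower from P5 to P8, and 9 lower from E15.5 to P8. The 2 libraries high in heart muscle genes were chosen after seeing the data. Leaving them out left E15.5 replicate 3 alone at its time-point, so member counts from that fit are not given. Without the 3 libraries high in thymocyte genes, 0 were higher and 25 lower from P5 to P8 (median -0.31), with the lone P8 library assumed to vary like the other groups. With only the 6 libraries compared, 2 were higher from P5 to P8. Scaling by the geometric mean of members gave 0 lower between the embryonic time-points and 9 lower from P5 to P8 relative to the family. With the replicate number as a block, 1 member was higher and 0 lower relative to the family from E15.5 to E18.5, while levels gave 11 higher, 81 lower, 3 higher with 34 lower, and 83 lower in the order of the comparisons. With mapped reads as denominator the shares were 3.95%, 4.28%, 2.58% and 2.19% in the order of age. Without mitochondrial, globin and surfactant genes they were 4.65%, 5.03%, 3.17% and 2.66%. From E18.5 to P5, Rps14 changed by between -0.268 (without E18.5 replicate 3) and 0.00579 (without E18.5 replicate 2), and Rps4l by -0.0147 without TMM and by -0.0322 with limma. The cause was not tested.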
